A study of Mus musculus with 6 samples.

Results

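The BCL2 family sets whether the outer mitochondrial membrane stays intact when a cell is under stress. Its pro-survival proteins (BCL2, BCL-XL and MCL1) hold the pore-forming effectors BAX and BAK in check, and the BH3-only proteins (BIM, PUMA, NOXA and BID) start death by binding either class. BOK is an effector that resides largely at the endoplasmic reticulum (ER). During prolonged ER stress the transcription factor CHOP, encoded by Ddit3, is known from other cells to raise BIM and to lower BCL2, which links the unfolded protein response to this family. Much of the family is also controlled at the protein level, and these libraries measured RNA only.

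The 10 genes described here were chosen by name: the pro-survival genes Bcl2, Bcl2l1 and Mcl1, the effectors Bax, Bak1 and Bok, and the BH3-only genes Bbc3, Pmaip1, Bcl2l11 and Bid. All 10 were listed among the 43271 Ensembl genes of the count table, and 9 of them were among the 14101 genes with enough counts to be tested. The samples were primary brain microvascular endothelial cells of wild-type C57BL/6 mice, which wall the capillaries of the brain and seal them against the blood. They were grown to confluence and kept for 24 h either in vehicle (dimethyl sulfoxide, DMSO; 3 libraries) or in 5000 ng/ml of the HIV integrase inhibitor dolutegravir (DTG; 3 libraries). The study's title places the question in ER stress and the barrier. Whether the 3 libraries of a group are separate cultures is not in the labels, and the p-values therefore cover a spread between libraries that may be technical.

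Library totals ranged from 41162353 to 56316335 counts. Library names carry an undefined tag, P4 for DMSO replicate 1 and DTG replicates 2 and 3, and P5 for DMSO replicates 2 and 3 and DTG replicate 1. They also carry a number whose meaning is not given, which DMSO replicates 1 and 2 share, as do DTG replicates 1 and 2. Summed over 10 endothelial markers, the level was 7590 to 7930 CPM (counts scaled to a common library size) in DMSO and 5710 to 6030 CPM in DTG. Of the 10 markers 7 were lower in DTG (adjusted p under 0.05, edgeR) and none was at 0, beside 29.3% of all genes tested that were lower. Cdh5, Flt1 and Esam did not pass, with log2 changes of 0.17, 0.07 and 0.05. The 7 pericyte and smooth muscle markers summed to 0.59 to 0.691 CPM in DMSO and 0.78 to 1.47 CPM in DTG, with Rgs5 and Kcnj8 at 0. The 5 fibroblast markers summed to 6.51 to 7.44 and 7.73 to 8.67 CPM, mostly Pdgfra, and the 7 glial and neuronal markers to at most 0.276 CPM, with Aqp4 and Mog at 0. The 7 leukocyte and microglia markers summed to 107 to 125 and 128 to 185 CPM, nearly all of it from 2 genes that moved in opposite directions: Cd68, a lysosomal gene, rose from 91.4 to 140 CPM and Tmem119 fell from 26.7 to 6.93 CPM (adjusted p = 0.00559 and 1.09e-06, edgeR). The leukocyte gene Ptprc had at most 0.0622 CPM and P2ry12 was at 0. The part of these marker levels in the results was not tested. In bulk RNA, fewer cells of a type and less RNA per cell cannot be told apart.

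Ddit3 gives the size of the stress response against which the family was read. Its level was 20.0, 21.4 and 16.8 CPM in DMSO replicates 1 to 3 and 402, 691 and 665 CPM in DTG replicates 1 to 3. DTG replicate 1, the P5 library, was the lowest of the DTG libraries, and within DTG this library and its tag cannot be told apart. The log2 change of Ddit3 was 4.91 ± 0.23 (SE; edgeR quasi-likelihood test, adjusted p = 1.70e-06), being 5.08 among P4 and 4.39 among P5 libraries.

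All 9 measured family members changed less than Ddit3, the largest log2 change being -0.90 in Bok. In DTG cultures 1 member, Bak1, was higher, 2 members, Bok and Bcl2l11, were lower, and 6 did not pass (adjusted p threshold 0.05 over all genes tested). Across all genes tested 56.7% passed, 27.4% as higher and 29.3% as lower. The 3 of 9 members called were a smaller share. Before adjustment 5 of the 9 had a p under 0.05 (edgeR), and no share of all genes was computed at that threshold. A list of 9 genes is too short to set against the background, so the smaller share is no result about the family. Their median log2 change was -0.13 and their median size of change 0.25, beside -0.0145 and 0.37 over all genes tested. Against a change of 1.5-fold, edgeR's glmTreat called 0 of the 9 members after adjustment, beside 16.8% of all genes, 7.8% as higher and 9.04% as lower. Before adjustment 1 member (Bok) had a glmTreat p under 0.05, again with no such share computed over all genes. DESeq2 and limma-voom called the same 3 members as edgeR against no change. The size and the direction of the count rested on scaling. With library size alone 5 members were lower (Bcl2, Bax, Bok, Bbc3 and Bcl2l11) and 0 higher, and with upper-quartile factors 4 were lower and 0 higher, while over all genes the split moved from 3860 higher and 4130 lower to 2536 and 5730 with library size alone and to 3069 and 4963 with upper-quartile factors.

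**Figure D1:**
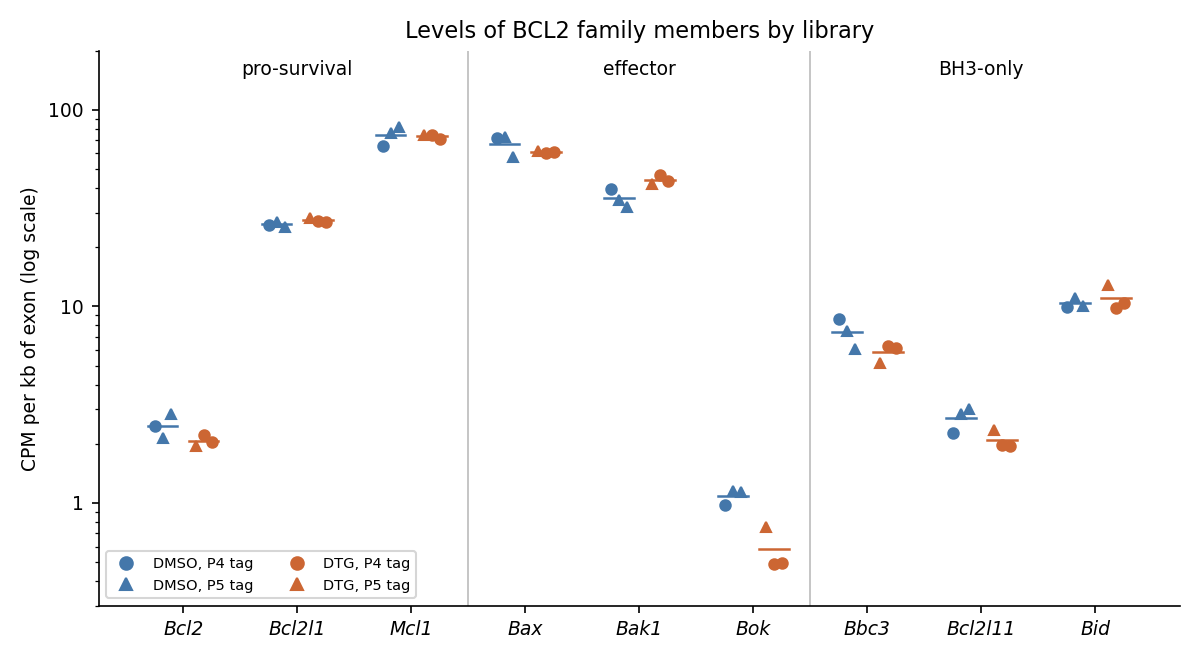
Level of the 9 measured members in each library, as CPM per kb of exon on a log axis, with points for libraries (circles P4, triangles P5) and bars for group means. Mcl1 lies at 65.7 to 81.7 in DMSO and 70.9 to 74.7 in DTG, and in Bok the groups are separated, at 0.974 to 1.15 and 0.49 to 0.757.

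The order of levels was compared per kb of exon, using the union of annotated exons of each gene. In DMSO Mcl1 stood at 74.5 ± 8.11 CPM per kb and Bax at 67.2 ± 8.38 (SD, n = 3), and these neighbours overlapped between libraries. Bak1 followed at 35.5 ± 3.91, Bcl2l1 at 26.2 ± 0.785, Bid at 10.4 ± 0.646 and Bbc3 at 7.4 ± 1.25 CPM per kb, each without overlap with the next. Bcl2l11 (2.71 ± 0.382) and Bcl2 (2.47 ± 0.346) overlapped, and Bok was lowest of the measured members at 1.09 ± 0.0999 CPM per kb. In DTG Mcl1 (73.4 ± 2.11) and Bax (61.3 ± 0.587) no longer overlapped, and Bcl2l11 (2.09 ± 0.233) and Bcl2 (2.07 ± 0.134) still did. Among the 3 pro-survival members alone, Mcl1 made up 69.7% to 74.3% of the summed CPM per kb in the 6 libraries, Bcl2l1 23.1% to 27.7% and Bcl2 1.86% to 2.6%. The sum leaves out the related pro-survival gene Bcl2l2, which at 10.7 CPM per kb in DMSO and 13.3 in DTG lay above Bcl2.

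The pro-survival genes showed no call in either direction. Mcl1, whose short-lived protein binds BIM and BAK, was at 225, 260 and 279 CPM with vehicle against 255, 254 and 242 CPM with DTG. The DTG values lay inside the DMSO range, and the log2 change of -0.02 had a 95% interval from -0.22 to 0.18 (adjusted p = 0.850, edgeR). Bcl2l1, which encodes BCL-XL, was at 120, 124 and 117 CPM with vehicle against 129, 125 and 124 CPM with DTG. The DTG libraries were a little higher, barely clear of the highest DMSO library, and the log2 change of 0.07 had an interval from -0.08 to 0.22 (adjusted p = 0.394), turning to -0.10 with library size alone. As folds of DTG over DMSO the intervals ran from 0.859 to 1.13 for Mcl1 and from 0.946 to 1.17 for Bcl2l1, on the TMM scale used throughout.

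Bcl2, the founding member of the family, was at 22.4, 19.5 and 25.8 CPM with vehicle against 17.8, 20.3 and 18.7 CPM with DTG. The groups overlapped, with DMSO replicate 2 below DTG replicate 2. The log2 change was -0.25 ± 0.11 (SE, interval -0.50 to -0.001) and did not pass after adjustment (adjusted p = 0.0806, unadjusted p = 0.0494, edgeR). It passed as lower with library size alone (-0.42, adjusted p = 0.00788), with upper-quartile factors (adjusted p = 0.0228) and without DMSO replicate 2 (adjusted p = 0.0292), with adjusted p from 0.00788 to 0.254 over 16 alternatives. Of the 3 pro-survival genes, 0 passed with edgeR, DESeq2 or limma-voom, and 1 (Bcl2) had an unadjusted p under 0.05 with edgeR.

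The effectors moved in different directions. Bak1, which encodes the BAK pore protein of the outer mitochondrial membrane, was at 95.4, 84.1 and 76.8 CPM with vehicle against 101, 113 and 104 CPM with DTG. Every DTG library lay above every DMSO library, as it did for 64.2% of all genes tested when either direction is counted. Bak1 rose by 0.31 ± 0.09 log2, or 1.24-fold (95% interval 1.08 to 1.43, adjusted p = 0.0145, edgeR), being 0.19 among P4 and 0.33 among P5 libraries. The call was lost with library size alone (log2 change 0.14, adjusted p = 0.211), with upper-quartile factors (0.22, adjusted p = 0.0645) and without DMSO replicate 2 (0.30, adjusted p = 0.0524), with adjusted p from 0.00315 to 0.211 over 16 alternatives. Bak1 shares 437 and 177 exon bases with 2 annotated Ggnbp1 entries on the opposite strand, which held at most 193 counts per library beside at least 3334 for Bak1, and the strand setting of the counting is not given in the sources used here.

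Bax, the cytosolic effector that inserts into mitochondria on activation, was at 113, 114 and 90.7 CPM with vehicle against 97.6, 95.7 and 96.7 CPM with DTG. The 3 DTG values were close together and lay within the spread of the DMSO values. The log2 change of -0.13 had an interval from -0.34 to 0.08 (adjusted p = 0.253, edgeR). It passed as lower without DMSO replicate 3 (-0.23, adjusted p = 0.00966) and with library size alone (-0.30, adjusted p = 0.0199), with adjusted p up to 0.573 over 16 alternatives. As shares of the summed effector level within a library, on which the scaling factor has no bearing, Bax took 63.5% to 66.8% in DMSO and 56.2% to 59.1% in DTG. Bak1 took 32.2% to 35.3% and 40.2% to 43.3%, so in neither share did the groups overlap. Bok took at most 1.26%, so the shares of Bax and Bak1 nearly mirror each other and show a single separation. They do not show that Bax itself fell.

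Bok had the largest change of the 9 members and the lowest level. It had 91, 126 and 91 counts with vehicle against 75, 46 and 44 counts with DTG, or 1.79, 2.12 and 2.09 CPM against 1.39, 0.901 and 0.912 CPM. The groups did not overlap, and DTG replicate 1 lay closest to the DMSO libraries. Bok fell by 0.90 ± 0.21 log2, or 1.87-fold (adjusted p = 0.00471, edgeR), being -0.98 among P4 and -0.60 among P5 libraries, and it passed in all 16 alternatives (adjusted p 0.000987 to 0.0260). Among the edgeR fits, Bok passed 1.5-fold without DTG replicate 1 and with library size alone, and in no other.

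Of the 3 tested BH3-only genes, 1 fell and none rose. Bcl2l11, which encodes BIM, the BH3-only protein most often tied to CHOP, was at 18.3, 22.6 and 24.2 CPM with vehicle against 18.9, 15.7 and 15.6 CPM with DTG. The groups overlapped, since DTG replicate 1 lay above DMSO replicate 1. Bcl2l11 fell by 0.37 ± 0.12 log2, or 1.3-fold (interval of the log2 change -0.65 to -0.10, adjusted p = 0.0251, edgeR), being -0.23 among P4 and -0.31 among P5 libraries. The call was lost when DMSO replicate 2 (adjusted p = 0.0847), DMSO replicate 3 (0.0946), DTG replicate 2 (0.107) or DTG replicate 3 (0.118) was left out, the range being from 0.00393 to 0.118 over 16 alternatives.

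Bbc3, which encodes PUMA, a direct p53 target, was at 18.2, 16.0 and 12.9 CPM with vehicle against 10.9, 13.4 and 13 CPM with DTG. DMSO replicate 3 lay between the DTG values, and the other 2 DMSO libraries above all of them. The log2 change of -0.34 ± 0.14 did not pass (interval -0.64 to -0.04, adjusted p = 0.0540, edgeR). It passed as lower in 5 of 16 alternatives, among them library size alone (-0.51, adjusted p = 0.00825), the P tag as a term (-0.44, adjusted p = 0.00514) and without DMSO replicate 3 (-0.46, adjusted p = 0.0136), with adjusted p up to 0.214.

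Bid, whose protein can be activated by a cut from caspase 8, was at 35.1, 39.4 and 36.0 CPM with vehicle against 45.3, 34.8 and 37.0 CPM with DTG. DTG replicate 1 was the highest of all 6 and DTG replicate 2 the lowest. The log2 change of 0.08 had an interval from -0.15 to 0.32 (adjusted p = 0.520, edgeR) and turned to -0.09 with library size alone. Bid shares 628 exon bases with Bcl2l13 on the opposite strand. Pmaip1, which encodes NOXA, an MCL1 antagonist and a known target of ATF4 and p53, was listed at 0 counts in all 6 libraries. A count of 0 allows up to 3 counts, or 0.0505 to 0.0691 CPM per library, for counting error only. Why the gene is at 0 in every library was not tested, and no fold is given.

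Across treatment and P tag, no member had an interaction that passed: the difference between the P4 and P5 changes ranged from -0.38 (Bok) to 0.22 (Mcl1) log2, with adjusted p of at least 0.613. Over all genes 0 of 14101 passed this edgeR test and 1351 had an unadjusted p under 0.05. It rests on 1 DMSO and 2 DTG libraries with P4 and on 2 and 1 with P5.

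**Figure D2:**
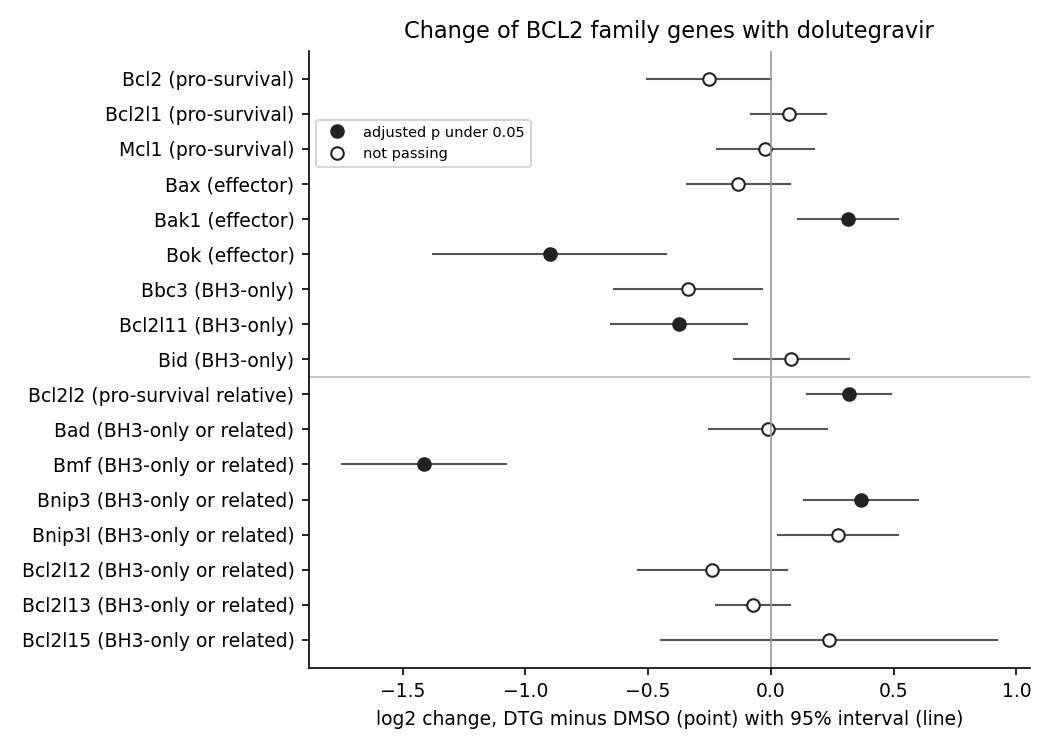
Log2 change (DTG minus DMSO) of the 9 measured members and of 8 tested relatives, with 95% intervals from the edgeR fit and filled points for adjusted p under 0.05. Among the members Bok lies lowest at -0.90 and Bak1 highest at 0.31, and Bmf at -1.41 is the lowest of all 17 points.

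Death and survival members were also set against each other within each library, as log2 ratios of CPM per kb and with no test. Bax to Bcl2 stood at 4.87, 5.09 and 4.35 in DMSO and 4.99, 4.78 and 4.91 in DTG, with means of 4.77 ± 0.38 and 4.89 ± 0.11 (SD, n = 3). The DTG values lay inside the DMSO range, and the difference of 0.12 ran from -0.09 to 0.28 as each library was left out. Bcl2l11 to Bcl2 was at 0.13 ± 0.26 in DMSO and 0.01 ± 0.24 in DTG, again overlapping.

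The groups were separated in 2 of the 7 ratios computed, Bcl2l11 to Mcl1 and Bbc3 to Bcl2l1. For single genes the groups were separated in 64.2% of those tested, and no such share was computed for ratios. The count is therefore no result about the balance of death and survival genes. In CPM the groups overlapped for Bcl2l11 and for Bbc3. Bcl2l11 to Mcl1 was -4.85, -4.75 and -4.76 in DMSO and -4.99, -5.25 and -5.19 in DTG, so each DTG library held less Bcl2l11 per Mcl1 RNA. Bbc3 to Bcl2l1 was lower in DTG as well, at -1.60, -1.85 and -2.06 in DMSO and -2.45, -2.12 and -2.15 in DTG. The summed effectors to summed pro-survival genes averaged 0.01 ± 0.27 in DMSO and 0.04 ± 0.04 in DTG, and the summed BH3-only to pro-survival genes -2.33 ± 0.17 and -2.44 ± 0.08. The summed levels themselves were 103 ± 8.06 and 103 ± 2.56 CPM per kb for pro-survival genes, 104 ± 11.6 and 106 ± 1.78 for effectors, and 20.5 ± 1.12 and 18.9 ± 1.17 for BH3-only genes.

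**Figure D3:**
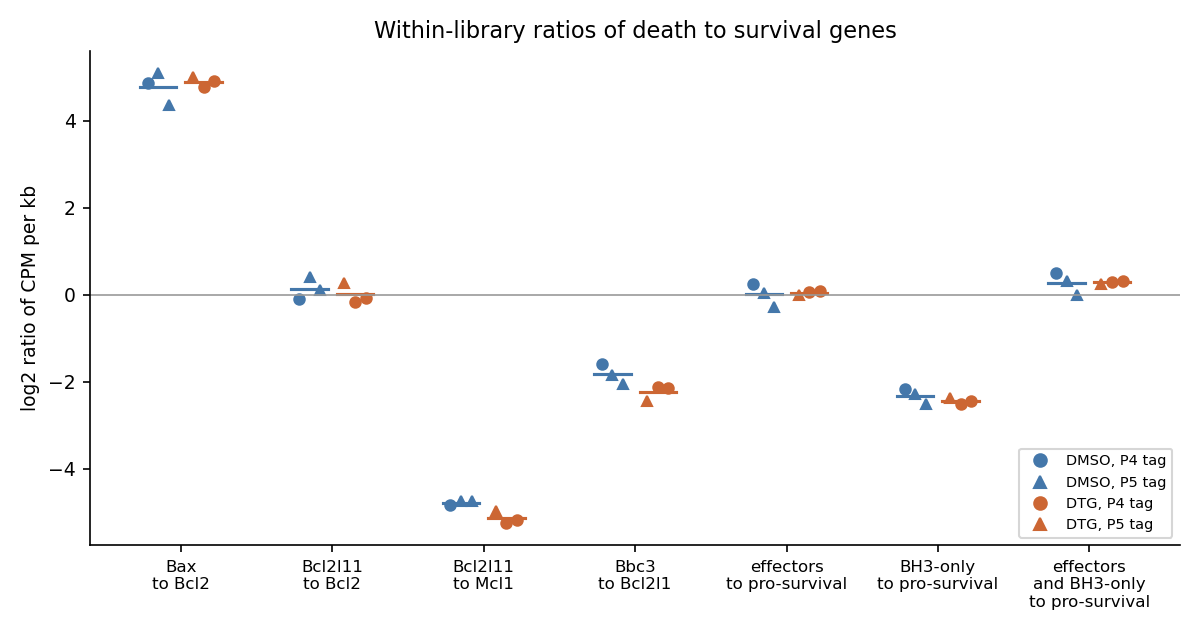
Log2 ratios of CPM per kb between death and survival genes in each library (circles P4, triangles P5), with bars for group means. The groups overlap in 5 of 7 ratios, and the DTG libraries lie below all DMSO libraries for Bcl2l11 to Mcl1 and for Bbc3 to Bcl2l1.

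Among relatives outside the 10, the clearest change was in Bmf, a BH3-only gene whose protein is held at the cytoskeleton in attached cells. It was at 23.5, 26.0 and 24.5 CPM with vehicle against 11.8, 8.17 and 7.73 CPM with DTG, with every DTG library under every DMSO library. Bmf fell by 1.41 ± 0.15 log2, or 2.66-fold (adjusted p = 3.12e-05, edgeR), passed 1.5-fold (glmTreat adjusted p = 0.000485) and kept its call in all 16 alternatives. Bcl2l2, the pro-survival BCL-W gene, rose 1.25-fold, from 47.6 ± 3.13 to 59.4 ± 1.55 CPM (adjusted p = 0.00513), a call lost with library size alone (adjusted p = 0.127, the highest of 16 alternatives, which began at 0.000523). Bcl2l2 was the only 1 of 5 other pro-survival genes with enough counts, since Bcl2l10 and Bcl2a1d were at 0 and Bcl2a1a and Bcl2a1b, near-identical copies expressed mainly in blood cells, had at most 8 counts in a library.

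Of 10 other BH3-only or related genes 7 were tested, 1 higher and 1 lower, and their median log2 change was -0.01. Scaling by library size alone left 0 higher and 3 lower, and over the leave-one-out fits the counts ran from 0 (without DMSO replicate 1) to 2 higher and from 1 to 3 lower (both highest without DMSO replicate 3, with 2 lower without DTG replicate 1 or 3). Bnip3, a mitophagy receptor gene and hypoxia target, rose 1.29-fold to 22.1 ± 0.92 CPM (adjusted p = 0.0128), a call lost with library size alone and without DMSO replicate 1 (adjusted p = 0.135 and 0.0502, range from 0.00208). Its paralog Bnip3l differed by 0.27 log2 (adjusted p = 0.0558) and passed as higher in 5 of 16 alternatives, DESeq2 among them. Bad, the BH3-only gene controlled by survival kinases, was at 37.6 ± 5.64 and 37.3 ± 1.27 CPM (log2 change -0.01, interval -0.25 to 0.23). The log2 changes of Bcl2l12 (-0.24), Bcl2l13 (-0.07) and Bcl2l15 (0.24) did not pass, though with library size alone Bcl2l12 and Bcl2l13 passed as lower (adjusted p = 0.0292 and 0.0118), as Bcl2l12 did without DMSO replicate 3 (0.0314). Bik (33 counts in DMSO and 12 in DTG), Bcl2l14 (3 and 0) and Hrk (0) were too low to be tested.

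As a list, CHOP and its arm, which includes genes that CHOP induces, moved much further than the members. The median size of change was 2.67 log2 beside 0.25 for the members. Of 12 genes of CHOP and its arm 10 rose and 1 fell (2 without DMSO replicate 1 or with library size alone), with a median of 2.67 log2. Of the 10, 8 passed 1.5-fold. Over all genes tested 27.4% passed as higher and 29.3% as lower, and 7.8% passed 1.5-fold as higher. Trib3, a pseudokinase gene induced by CHOP, rose from 17.9 ± 2.02 to 175 ± 27.8 CPM, and Ero1a, an ER oxidase gene that CHOP induces, from 80.2 ± 12.7 to 766 ± 163 CPM (adjusted p = 8.11e-08 and 1.07e-06, edgeR). These genes were known to rise from earlier results of the same libraries, and they are given here as the scale beside the members.

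The p53 pathway controls Bbc3, Pmaip1 and Bax in other settings. Trp53 itself rose 1.47-fold, from 67.4 ± 6.16 to 99.1 ± 12.9 CPM (adjusted p = 0.00144, edgeR). Of 10 tested genes of the list 5 rose and 4 fell, with a median of 0.22 log2, beside 27.4% higher and 29.3% lower over all genes. The 4 became 2 without DMSO replicate 1, without DTG replicate 2 and without DTG replicate 3. Cdkn1a, the cell cycle inhibitor gene, rose by 0.51 and the nuclease gene Aen by 0.76 log2, whereas Sesn1, a stress-inducible regulator of growth signalling, fell by 1.92 log2 (adjusted p = 0.000253, 3.10e-05 and 2.72e-07).

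FOXO transcription factors are known activators of Bcl2l11, Bbc3 and Bmf in other settings. Of the 3 FOXO genes 2 fell, beside 29.3% of all genes tested that passed as lower. A list of 3 genes is too short to set against that share. Whether the FOXO genes bear on the members or Bmf was not tested. Foxo3 was at 117, 115 and 124 CPM with vehicle against 72.7, 87.3 and 80.7 CPM with DTG, and Foxo4 at 33.1, 32.7 and 31.8 CPM with vehicle against 18.9, 14.5 and 14.3 CPM with DTG. In both genes every DTG library lay under every DMSO library, and 64.2% of all genes tested were separated in either direction. The log2 changes of Foxo3 and Foxo4 were -0.56 ± 0.08 and -1.03 ± 0.11 (adjusted p = 0.000275 and 3.89e-05, edgeR). Foxo1 did not pass (log2 change 0.17, adjusted p = 0.111, range 0.0205 to 0.983 over 16 alternatives). It passed as higher when DMSO replicate 3 (adjusted p = 0.0424) or DTG replicate 1 (0.0205) was left out.

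Promoter windows were searched for the letters these factors bind, since RNA of the CHOP arm, p53 and FOXO genes all moved. RefSeq promoter windows (build GRCm38.p6, 250 bases before to 50 after a start) were used for 9 members with 14 windows. Pmaip1 was left out of the search, so the motif counts below do not cover it. Coordinates below are of that build, not of the build of the counts. On either strand, TGATGNAA, the amino acid response element read by ATF4 with C/EBP partners such as CHOP, was in 0 of the 14 windows and in 3.97% of 32851 windows of all genes. TGCAAT, the core of the CHOP motif, which can overlap it, was in 0 and in 8.4%. With background shares this low, 0 of 14 windows is no result about the members. GTAAACA, the FOXO motif, was in 2 windows, 1 each of Bcl2l11 and Bbc3, and in 3.65% of all. The p53 motif (a single decamer) was in 1, of Bax, and in 8.36% of all. Counts this small are likewise no result about the members. The 250 bases before the start of these 3 windows are shown, in lower case with the matching letters in capitals: the FOXO motif in Bcl2l11 (chr2:128125788-128126037, plus strand, match from position -227) and in Bbc3 (chr7:16310011-16310260, plus strand, from -167, on the reverse strand), and the p53 motif in Bax (chr7:45466899-45467148, minus strand, from -201).
Bcl2l11: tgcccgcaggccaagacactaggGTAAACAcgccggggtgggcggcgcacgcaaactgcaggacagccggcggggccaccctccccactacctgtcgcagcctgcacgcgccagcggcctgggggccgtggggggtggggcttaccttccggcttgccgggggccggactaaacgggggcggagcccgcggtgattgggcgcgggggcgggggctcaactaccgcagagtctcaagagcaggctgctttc
Bbc3: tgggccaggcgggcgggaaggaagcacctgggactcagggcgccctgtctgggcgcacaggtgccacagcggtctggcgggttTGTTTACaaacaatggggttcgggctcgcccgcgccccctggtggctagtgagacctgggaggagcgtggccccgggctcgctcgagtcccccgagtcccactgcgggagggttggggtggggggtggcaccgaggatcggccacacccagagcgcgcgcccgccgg
Bax: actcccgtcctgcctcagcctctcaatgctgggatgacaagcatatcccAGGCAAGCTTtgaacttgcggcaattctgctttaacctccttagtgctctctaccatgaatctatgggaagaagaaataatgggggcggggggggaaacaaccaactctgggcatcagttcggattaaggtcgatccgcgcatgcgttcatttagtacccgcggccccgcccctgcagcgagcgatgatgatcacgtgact
A match describes letters in these windows and is neither a binding site nor a cause of a change, and elements outside the windows were not searched. All 250 bases before the start lay in annotated exons for Bak1 and for the Bcl2l1 windows from chr2:152828440 and chr2:152830668. A stretch just after the start was found in no GENCODE transcript of the gene for Bok, Bcl2, Mcl1 and Bbc3, the Bbc3 window shown included. Bcl2l11, which has the FOXO letters, fell by 0.37 log2, and Bbc3 with the same letters differed by -0.34 and did not pass. Bax with the p53 motif differed by -0.13 and did not pass. Bok (-0.90) and Bak1 (0.31), the other members called, had neither motif in their windows. Whether the letters bear on any of these changes was not tested.

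Downstream of the pore, 14 genes of mitochondrial release and caspase activation were tested. Of these 5 rose and 4 fell, with a median of 0.13 log2, or 3 and 5 with library size alone, a share called near the 56.7% of all genes and so no result about the list. Cycs, which encodes cytochrome c, the electron carrier whose release starts apoptosome assembly, was at 40.2, 43.6 and 30.7 CPM with vehicle against 62.9, 72.2 and 91.5 CPM with DTG. It rose by 0.99 ± 0.16 log2 and the groups were separated (adjusted p = 0.000625, edgeR). Casp6, an executioner caspase gene, fell from 24.1 ± 1.95 to 15.4 ± 1.19 CPM, and Birc5, the survivin gene, which is also a mitotic gene, from 43.2 ± 3.56 to 20.5 ± 0.962 CPM (adjusted p = 0.000332 and 5.98e-06).

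**Figure D4:**
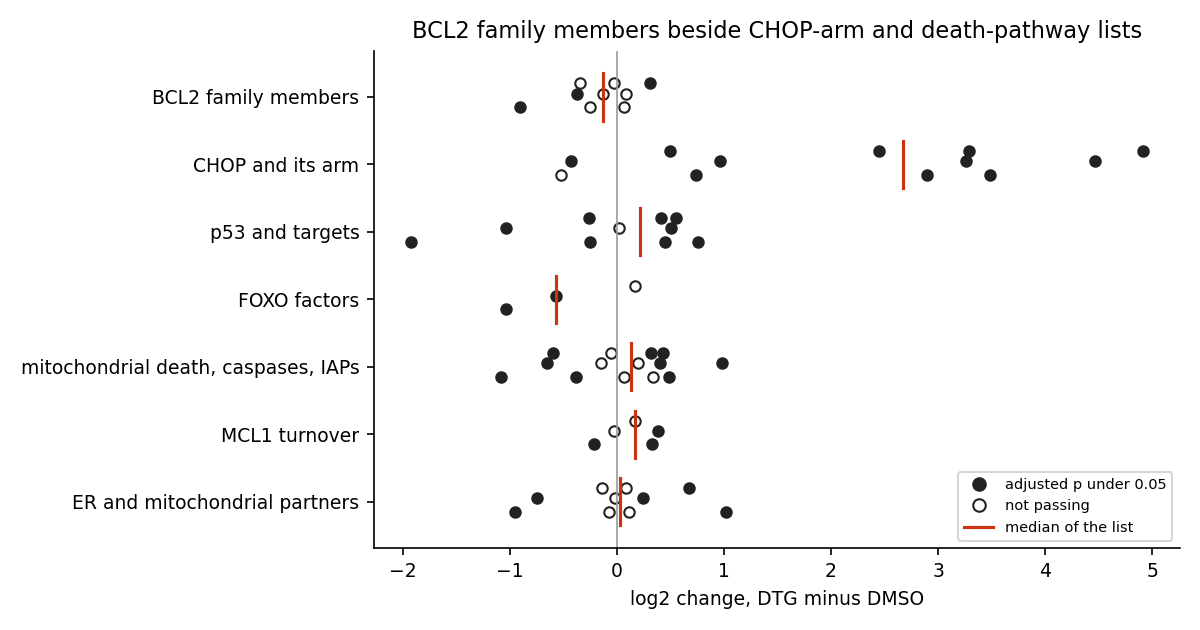
Log2 change (DTG minus DMSO) of each tested gene in 7 lists, with filled points for adjusted p under 0.05 and a red bar at each list's median. The members span -0.90 to 0.31 around a median of -0.13, beside a CHOP-arm median of 2.67.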

How the data were processed

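Raw, unnormalized counts by Ensembl identifier were deposited for 6 libraries in 1 table. Per the submitters' processing notes the build was GRCm39. The sources used here do not give the aligner, counter, strand setting or annotation. Libraries were poly(A) and strand-preserving, per the labels' protocols. The column spelled DIG belongs to DTG replicate 1 by its library name. Symbols matched 38606 of 43271 identifiers (89.2%), and exon lengths came from GENCODE for GRCm38.

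Counts were filtered by filterByExpr, scaled by TMM and tested in R 4.3.3 with edgeR 4.0.16 (quasi-likelihood F-test, robust, with group alone in the design). Adjustment was by Benjamini-Hochberg over all genes tested. Intervals are 95% t intervals on the log2 change, with SE as its size over the square root of F, and cover TMM-scaled values. Alternatives were DESeq2 1.42.0, limma-voom (limma 3.58.1), other scalings and filters, no robust estimation, a replicate block, the P tag, and leaving out each library. The pipeline was tested on simulated counts.

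Members and lists were chosen with earlier results of these data known. Named genes were the members, Ddit3, Trp53, all tested relatives, and the 3 smallest p-values of each other list. Figures used matplotlib 3.10.9 under Python 3.11.15.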

Additional observations from a re-analysis of the deposited data

How the results depend on the processing

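The number of members passing stayed between 2 and 4 in 15 of 16 alternatives and was 5 with library size alone, which shifted the median log2 change of all genes from -0.0145 to -0.185. As each library was left out it ranged from 2 to 4, and the number past 1.5-fold from 0 to 1, the 1 being Bok without DTG replicate 1. Library size alone also put 1 member, Bok, past 1.5-fold. The genes passing over the whole table ranged from 6470 to 8518. With the replicate block 7271 genes and 3 members passed, the same 3 as without it, and among the genes named here the block changed the call of Btrc alone (adjusted p = 0.0798). Same-numbered libraries deviated from their group means with correlations of -0.277, 0.031 and -0.048 across genes, and no DMSO library correlated best with its own number, so the numbers were not taken as pairs. The ratio of Pmaip1 to Mcl1 could not be computed because Pmaip1 was at 0. Depth limits only Bok among the tested members, with 44 to 126 counts per library.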

Other observations

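Among 10 tested partners of the family at the ER and the outer mitochondrial membrane 3 rose and 2 fell, with a median of 0.03 log2, or 2 and 5 with library size alone. That share is near the 56.7% of all genes that passed and is no result about the list. Itpr3 and Itpr1 encode ER calcium channels that BCL2 and BCL-XL bind. Itpr3 was at 427, 364 and 363 CPM with vehicle against 225, 191 and 183 CPM with DTG, and Itpr1 at 146, 145 and 159 CPM with vehicle against 96.2, 86.9 and 86.3 CPM with DTG, with the groups separated in both. They fell by 0.95 ± 0.10 and 0.74 ± 0.08 log2 (adjusted p = 3.20e-05 and 3.00e-05, edgeR). Vcp, the ATPase that extracts proteins from the ER for degradation, rose from 589 ± 12.8 to 1200.0 ± 93.9 CPM (adjusted p = 5.32e-06).

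Of 5 tested genes that set the lifetime of the MCL1 protein 2 rose and 1 fell, with a median of 0.17 log2, again a share near the 56.7% of all genes. The deubiquitinase gene Usp9x rose by 0.39 ± 0.12 log2 (adjusted p = 0.0156, edgeR) and the mitochondrial ubiquitin ligase gene Marchf5 by 0.33 ± 0.07 (adjusted p = 0.00298). Both calls were lost with library size alone (adjusted p = 0.121 and 0.0714), and that of Usp9x also without DMSO replicate 1 or 2 (0.0666 and 0.0710), with ranges over 16 alternatives from 0.000881 to 0.121 and from 0.000114 to 0.0714. The ligase gene Btrc fell by 0.22 ± 0.08 log2 (adjusted p = 0.0316), a call lost in 8 of 16 alternatives, among them DESeq2, the replicate block (adjusted p = 0.0798), and without DMSO replicate 1 or 2 or any 1 DTG library (0.0733 to 0.139), with a range from 0.00143 to 0.139.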
